A study of Mus musculus with 6 samples.

Results

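Fli1 and Ets1 are neighbouring genes of ETS-family transcription factors on mouse chromosome 9, and the open chromatin around them was read from ATAC-seq peaks. A peak belonged to Fli1 or Ets1 when its summit lay in that gene's span, or nearer to it than to any other protein-coding gene (mm10). By this rule 23 of the 47233 peaks of the Smc3 het list and 6 of the 14830 peaks of the Smc3 wt list were at the pair. Fli1 had 13 Smc3 het peaks and 2 Smc3 wt peaks, and Ets1 had 10 Smc3 het peaks and 4 Smc3 wt peaks. A peak is called shared when it overlapped a peak of the other list by at least 1 bp, and otherwise it is in its list alone.

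ETS factors bind DNA through the ETS domain, which recognises sites built around a GGAA core. Fli1 is needed for blood and vessel development and drives megakaryocyte genes, and it works in blood stem and progenitor cells with Erg, Gata2, Runx1, Tal1, Lyl1 and Lmo2, a group known as the heptad. Ets1 is best known in lymphoid cells, where it acts in T, B and NK cell development. Enhancers inside Fli1 and upstream of it are known in mouse blood progenitors, but the peaks below were not matched to them. Smc3 is a ring subunit of cohesin, the complex that extrudes chromatin loops and holds enhancers and promoters in common domains.

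ATAC-seq uses the Tn5 transposase to insert sequencing adapters into open DNA. The cells were hematopoietic stem and progenitor cells (HSPC) of lineage-depleted bone marrow from mice. The first group had the genotype inv(16);Smc3 D/+ (Smc3 het, 3 libraries) and the other inv(16);Smc3 +/+ (Smc3 wt, 3 libraries). All 6 libraries thus carried inv(16), which in human acute myeloid leukemia joins CBFB to MYH11, and none was without it. Per the labels, cells were virally transduced and Cre was induced with tamoxifen, while the sources used here do not give the vector, the driver of Cre, the age of the mice or any pooling of animals. Per the series title, the study asked how cohesin haploinsufficiency and inv(16) together act on Fli1 programs.

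The deposited data hold 1 peak list per genotype and no values per library. No difference below therefore has a replicate check or a p-value, and read depth is unknown. In bulk tissue, chromatin open in fewer cells and chromatin less open in each cell cannot be told apart. Of all Smc3 het peaks 69.8%, and of all Smc3 wt peaks 2.92%, lacked a counterpart in the other list. Against the cell type label, all 4 stem and progenitor markers checked (Kit, Cd34, Gata2 and Meis1) had a Smc3 het peak in the gene or within 5 kb of it, and 2 of the 4 had a Smc3 wt peak, with none at Cd34 and Gata2. Markers of other cells had peaks too. In Smc3 het these were 2 of 3 monocyte, 2 of 3 T cell, 2 of 3 B cell, 1 of 2 erythroid and 3 of 4 megakaryocyte markers. In Smc3 wt they were 0 of 3, 0 of 3, 0 of 3, 1 of 2 and 2 of 4 in the same order. By the wider nearest-gene rule, 71.7% of all protein-coding genes had a Smc3 het peak and 45.8% a Smc3 wt peak. Counts over so few markers do not settle which cells were present, and the part of other cells in the results below was not tested.

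Fli1 spans 32422204 to 32543432 (121229 bp) and Ets1 32636241 to 32757820 (121580 bp), with 92.8 kb between them. The genes are known to be transcribed away from each other, so their 5′ ends face each other across this interval. The gene table used gives only the outermost ends of each gene and neither exons nor inner start sites, so peaks could not be placed in exons, introns or UTRs. Within the near-equal spans the genes differed in number of peaks. Inside Fli1 there were 11 Smc3 het peaks (9.07 per 100 kb) and 2 Smc3 wt peaks (1.65 per 100 kb). Inside Ets1 there were 2 in each list (1.65 per 100 kb in both). The interval between the genes held 3 Smc3 het peaks and no Smc3 wt peak. The stretch from Ets1 to the midpoint before the next protein-coding gene, Kirrel3, is 864 kb long and held 7 Smc3 het peaks and 2 Smc3 wt peaks.

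Fli1 had 13 peaks in Smc3 het against 2 in Smc3 wt, where the whole lists hold 47233 and 14830. Of its 13 Smc3 het peaks 12 were in that list alone and 1 was shared (7.69%), beside 69.8% alone and 30.2% shared over the whole list. At Ets1 6 of 10 Smc3 het peaks were alone and 4 were shared (40%), and all 4 Smc3 wt peaks were shared. The like interval of the 40% was 12.2 to 73.8, which also holds 30.2% and overlaps that of Fli1. When only the 14830 most significant Smc3 het peaks were kept, so that both lists were equally long, the numbers came closer, 3 Smc3 het and 2 Smc3 wt peaks at Fli1 and 5 and 4 at Ets1. None of the peaks left at Fli1 was shared, and 4 of the 5 Smc3 het peaks left at Ets1 were. The cut had removed the shared Smc3 het peak of Fli1, while the Smc3 wt list was kept whole.

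The peaks in Fli1 left the part of the gene farthest from Ets1 empty. The 56.1 kb from the outer end at 32422204 held no peak of either list, and the first Smc3 het peak inside the gene began at 32478297. Then 7 peaks stood in a run from 32501012 to 32521991 (20980 bp), with gaps of at most 6329 bp, and all 7 were in the Smc3 het list alone. A run of 7 or more peaks with gaps of up to 10 kb, a measure chosen after the positions were seen, occurred 269 times in the Smc3 het list, holding 5.96% of its peaks. Of the peaks in those runs 62.9% had no Smc3 wt counterpart.

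**Figure D1:**
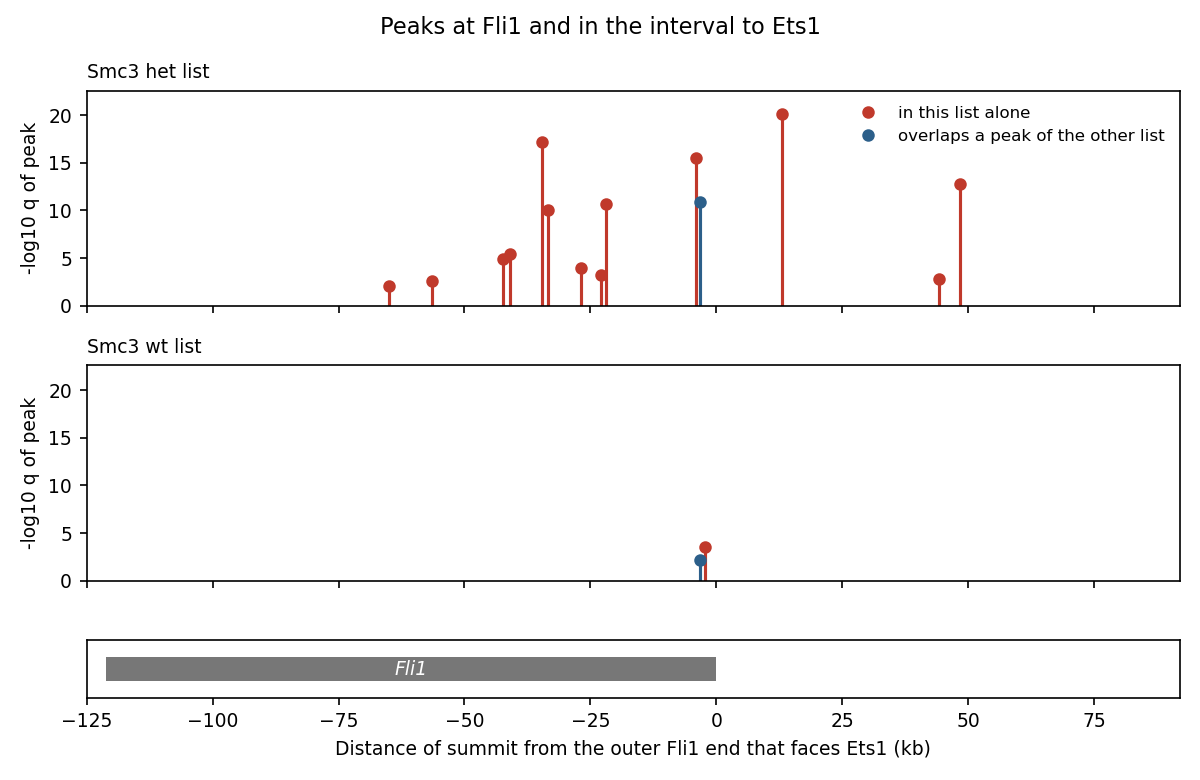
Peaks at Fli1 and in the interval to Ets1, by distance in kb of the summit from the outer Fli1 end that faces Ets1 (x) and the authors' -log10 q (y), for the Smc3 het list (top) and the Smc3 wt list (middle), with the gene spans below. Red peaks are in their list alone and blue peaks overlap a peak of the other list. The Smc3 wt list has 2 peaks, both within 5 kb of that end. Heights belong to each list and are not compared between lists.

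The run in Fli1 held the strongest peak inside the gene. Each peak's fold, the summit over the background of its list, and its -log10 q are the authors' values and rank peaks within that list only. The peak at 32508801 to 32508971 had a fold of 3.91 and a -log10 q of 17.2, which placed it in the top 22.4% of the Smc3 het list. At the next peak, 32509751 to 32510078, the fold was 3.20 and the -log10 q 10.03. At 32521228 to 32521991, the widest Fli1 peak (764 bp), they were 3.66 and 10.7. These 3 stood above the other 4 of the run, at 32501012, 32502371, 32516408 and 32520472, whose -log10 q ran between 3.21 and 5.46. The weakest Smc3 het peaks in the gene lay farthest from Ets1, at 32478297 with a -log10 q of 2.04 and at 32486695 with 2.57.

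At the 5′ end of Fli1 both lists had peaks, but only in part at the same bases. In Smc3 het a peak at 32539308 to 32539501 had a -log10 q of 15.5 (fold 3.80) and was in that list alone, 704 bp from the nearest Smc3 wt peak. A further Smc3 het peak, at 32540172 to 32540791 (620 bp, fold 3.28, -log10 q 10.9), overlapped the Smc3 wt peak at 32540206 to 32540518 (313 bp, fold 2.35, -log10 q 2.16). The Smc3 het summit was at 32540258 and the Smc3 wt summit at 32540219. The other Smc3 wt peak, at 32541064 to 32541326 (fold 2.62, -log10 q 3.51), overlapped nothing in Smc3 het and was 272 bp from the Smc3 het peak just named. The Smc3 wt peaks were thus 3.2 and 2.2 kb inside the outer end at 32543432, and no peak of either list lay within 1 kb of that end. Within the Smc3 wt list both were weak, 98.4% and 87.0% of the way down that list by -log10 q.

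The interval between the genes was open at 3 places in Smc3 het. The strongest Fli1 peak of all lay there, 13.1 kb outside the gene, at 32556181 to 32556633 with a fold of 4.97 and a -log10 q of 20.2. The other peaks of the interval formed a close pair on either side of the midpoint at 32589836. The one at 32587538 to 32587757, 44.2 kb from Fli1, had a -log10 q of 2.80. The one at 32591803 to 32592003, 44.3 kb from Ets1, had 12.8. None of the 3 was shared, and the nearest Smc3 wt peak was 14854 bp away from the first of them. The RefSeq long non-coding RNA genes Gm31871 and Gm31928 also lie in this interval, and no summit fell inside either.

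The 3 most significant Fli1 peaks were in the Smc3 het list alone. Peaks of that list with a like -log10 q were shared somewhat more often than not. Among the 1000 Smc3 het peaks ranked nearest to the 32556181 peak by -log10 q, 30.3% were alone. Around the 32508801 peak the share was 43.4%, and around the 32539308 peak 46.3%. These shares match peaks by -log10 q and not by width. The 32508801 and 32539308 peaks were narrower than 208 bp, the narrowest Smc3 wt peak. Of the 12234 Smc3 het peaks that narrow, 11976 were alone. The shared Fli1 peak, 32540172, ranked where 70.4% were alone. Between a -log10 q of 10 and 20, 4 of 5 Fli1 peaks and 1 of 4 Ets1 peaks were alone, beside 55.0% of all Smc3 het peaks in that band. Below 5, where 98.6% (under 3) and 95.9% (3 to 5) of all Smc3 het peaks were alone, all 6 Fli1 and all 4 Ets1 peaks were alone too. These shares describe the lists, and no test of the difference between Fli1 and the rest was possible with 1 list per genotype.

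**Figure D2:**
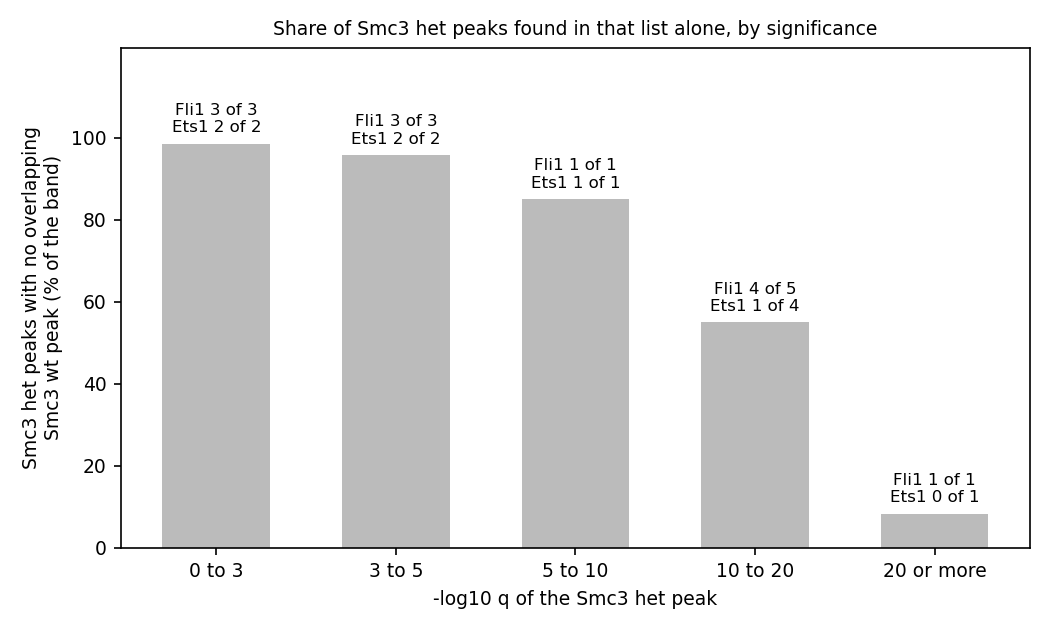
Share of all Smc3 het peaks with no overlapping Smc3 wt peak (y, percent) in 5 bands of -log10 q (x), with the numbers of Fli1 and Ets1 peaks alone written above each bar. The share is 98.6% in the lowest band and 8.36% at a -log10 q of 20 or more, and the 1 Fli1 peak in that last band was alone while the 1 Ets1 peak was shared.

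The background recovered around some of the Fli1 peaks was raised in both lists. The fold and p-value of a peak together give the pileup at its summit, the number of fragments or extended reads stacked there, and the background pileup against which it was called. The whole Smc3 het list had a background of 10.6 and the whole Smc3 wt list one of 8.65. At the Smc3 het peaks of Fli1 the local background was between 1.00 and 1.5 times that level, and it was over 1.2 times at 5 of the 13, beside 26.1% of all Smc3 het peaks. Those 5 were the 32502371, 32508801 and 32509751 peaks of the run (1.26, 1.5 and 1.44 times) and the 32539308 and 32540172 peaks at the 5′ end (1.44 and 1.46 times). At both Smc3 wt peaks of Fli1 it was also over 1.2 times, at 1.21 and 1.25, beside 30.6% of all Smc3 wt peaks. Those Smc3 wt peaks lay 545 bp apart, and the 5 Smc3 het peaks lay only in the run and at the 5′ end. Backgrounds of such near peaks may not be separate readings, so the counts are a description only. At Ets1 it was at most 1.11 times in Smc3 het and 1.00 times at all 4 Smc3 wt peaks.

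**Figure D3:**
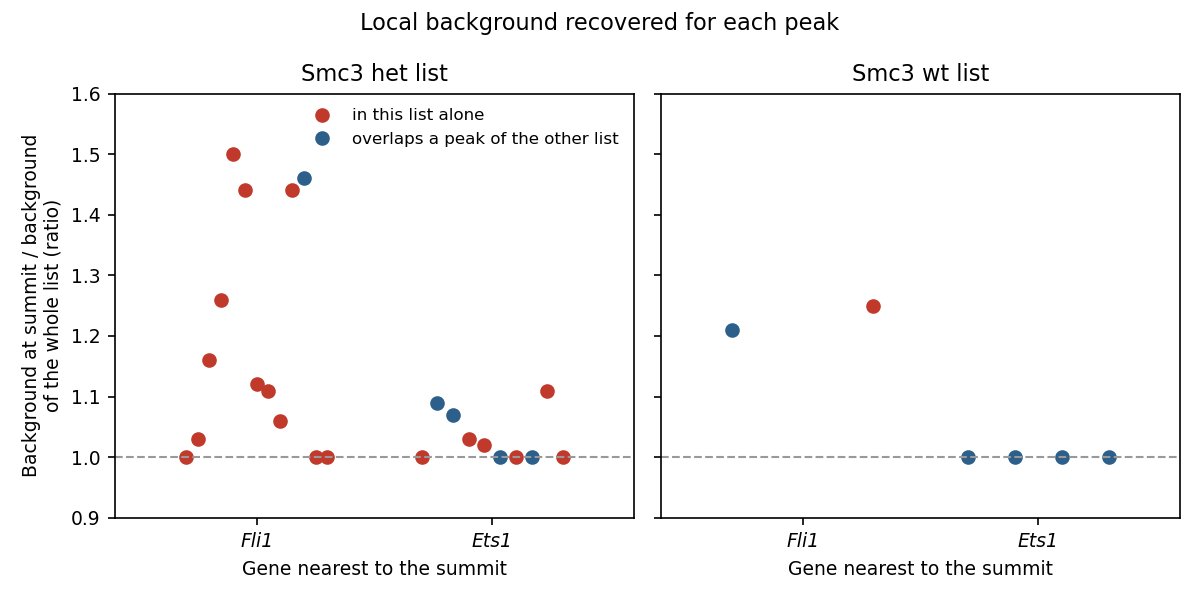
Local background at the summit of each peak, as a ratio to the background of its whole list (y), for peaks at Fli1 and Ets1 (x, ordered along the chromosome within a gene) in the Smc3 het list (left) and the Smc3 wt list (right). Red peaks are in their list alone, blue peaks overlap the other list, and the dashed line marks the level of the whole list. Fli1 reaches 1.5 among Smc3 het peaks and 1.25 among Smc3 wt peaks, and Ets1 reaches 1.11 and 1.00.

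A raised background lowers the fold of a peak, and the fold at Fli1 followed a different order from the pileup. The recovered pileup in Smc3 het was 65 at the 32508801 peak, 61 at 32539308, 57 at 32556181 and 53 at 32540172. The peak with the highest fold, 32556181, came behind 2 others by pileup and had a background of 1.00 times the list's level. In Smc3 wt the pileup at the 2 Fli1 peaks was 26 and 30, where the lowest of any Smc3 wt peak was 21 and the median 41. The lowest Smc3 het pileup at Fli1 was 25, with 23 the lowest and 38 the median of the Smc3 het list. The pileups follow depth and are not compared between lists.

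Ets1 was open at the same 2 places inside the gene in both lists. The stronger of them was at 32695670 to 32696414 in Smc3 het (fold 8.09, -log10 q 54.6) and at 32695684 to 32696289 in Smc3 wt (fold 5.18, -log10 q 17.8), with summits at 32696055 and 32696049. It was in the top 5.26% of the Smc3 het list and the top 29.2% of the Smc3 wt list, and it ranked first among the peaks of both genes in both lists. The other was at 32709789 to 32710479 in Smc3 het (fold 3.96, -log10 q 13.0) and at 32709822 to 32710055 in Smc3 wt (fold 3.00, -log10 q 4.46). Neither lay at an outer end of the gene. The outer 5′ end at 32636241 had no peak nearer than 44.2 kb in Smc3 het and 59.4 kb in Smc3 wt. The stronger peak lay 59.8 kb inside that end, and whether a shorter transcript starts there could not be read from the gene table.

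Beyond the 3′ end of Ets1 a sparse set of peaks reached up to 481.4 kb from the gene, and those shared by both lists were the strongest. One shared peak was at 32940331 to 32940771 in Smc3 het (-log10 q 12.2) and 32940461 to 32940686 in Smc3 wt (-log10 q 3.03), 182.7 kb from the gene in both. The other was at 33040845 to 33042187 in Smc3 het (1343 bp, -log10 q 16.7) and 33041037 to 33041919 in Smc3 wt (883 bp, -log10 q 5.49). It is the widest peak of the pair of genes in both lists, and its summit lies within the long non-coding RNA gene Gm27166. The 5 Smc3 het peaks alone in this stretch, at 32844454, 32895270, 32955124, 33157171 and 33239122, had -log10 q values of 2.25, 2.68, 4.99, 4.89 and 8.06. Each was weaker than either shared peak. Assignment of such distant peaks to Ets1 rests only on the lack of a nearer protein-coding gene: 2 of the 10 Smc3 het and 2 of the 4 Smc3 wt peaks lay within the gene and 5 kb around it.

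**Figure D4:**
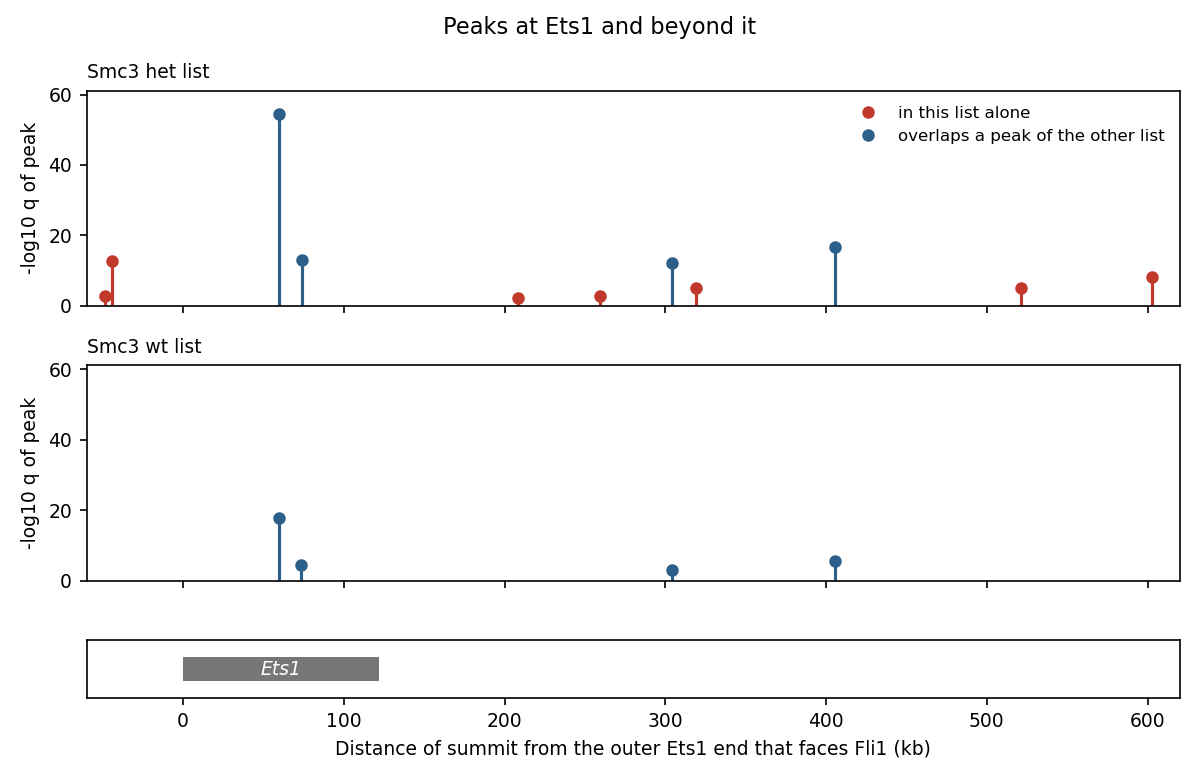
Peaks at Ets1 and beyond it, by distance in kb of the summit from the outer Ets1 end that faces Fli1 (x) and the authors' -log10 q (y), for the Smc3 het list (top) and the Smc3 wt list (middle), with the gene span below. Red peaks are in their list alone and blue peaks overlap a peak of the other list. The leftmost peak belongs to Fli1 by the midpoint rule. All 4 Smc3 wt peaks are shared, and heights are not compared between lists.

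The unshared peaks at Fli1 and Ets1 included narrow ones. Of the 18 Smc3 het peaks alone at the pair, 8 were narrower than 208 bp, the narrowest Smc3 wt peak, and they included the 32508801 (171 bp) and 32539308 (194 bp) peaks. Of all unshared Smc3 het peaks 36.3% were that narrow, so the members lay near the list's share. Of all shared Smc3 het peaks 1.81% were. A Smc3 het peak under 208 bp was thus nearly always alone, as 11976 of 12234 were. All 5 shared Smc3 het peaks at the pair were 441 bp or wider. With peaks under 208 bp left out, an alternative added after the data were seen, Fli1 kept 8 Smc3 het peaks, 7 of them alone.

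Set beside genes of like length, Fli1 stood near the top in peaks and Ets1 in the middle. Of the 968 protein-coding genes of 100 to 150 kb, 18 (1.86%) had 11 or more Smc3 het peaks inside the span, as Fli1 had. The median was 2 peaks in Smc3 het, as many as Ets1 had, and no peak in Smc3 wt. Of 21887 protein-coding genes, 186 (0.850%) had at least the 12 peaks of Fli1 in the Smc3 het list alone and 1268 (5.79%) at least the 6 of Ets1. Genes with exactly the counts of Fli1 in both lists (1 shared and 12 alone in Smc3 het, 1 shared and 1 alone in Smc3 wt) numbered 3: Pls3, Trps1 and Brinp3. For Ets1 (4 shared and 6 alone in Smc3 het, 4 shared and 0 alone in Smc3 wt) there were 16, and those nearest in length were Xxylt1, Chd2 and Nt5c2. The likeness is over 2 lists only.

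The genes next to the pair had between 1 and 6 Smc3 het peaks each, too few to set apart from the 69.8% alone over the whole list. On the Fli1 side the potassium channel genes Kcnj1 and Kcnj5 had 1 and 2 Smc3 het peaks and Arhgap32 had 5, all in that list alone, and none of these genes had a Smc3 wt peak. On the Ets1 side Kirrel3, a cell adhesion gene, had 6 Smc3 het peaks (4 alone) and 2 Smc3 wt peaks. The sialyltransferase gene St3gal4 had 3 Smc3 het peaks, all alone, and no Smc3 wt peak, and Dcps, a decapping enzyme gene, had 3 (1 alone) and 2.

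Within the ETS family Fli1 came behind only Erg and Etv6 in number of Smc3 het peaks, a count not scaled by gene length. Of 26 family genes 17 had at least 1 peak in the Smc3 het list alone, beside 55.4% of all protein-coding genes, and 1, Fli1, had an unshared Smc3 wt peak, beside 1.76% of all protein-coding genes. That Smc3 wt peak, 272 bp from a Smc3 het peak and with a -log10 q of 3.51, no longer counted as unshared when peaks within 500 bp were taken as shared, and dropped out at a -log10 q of at least 5. The median number in the Smc3 het list alone was 1, as over all protein-coding genes. Etv6, an ETS repressor, had 17 Smc3 het peaks (15 alone) and 2 Smc3 wt peaks, and Erg, the closest relative of Fli1, had 17 (14 alone) and 3. Elf1, an ETS factor of blood and vessel cells, had 11 (10 alone) and 1. All 11 lay inside its span of 101318 bp, as many as lay inside the 121229 bp of Fli1. Ets2, the closest relative of Ets1, had 9 (7 alone) and 2. Spi1, which encodes the myeloid factor PU.1, had 4 (2 alone) and 2. Ets1 had the most shared Smc3 het peaks of the family, 4, ahead of Erg, Etv1 and Elf2 with 3 each. Fev, Etv2, Gabpa, Elf3 and Spdef had no peak in either list. Ets2, Spi1, Etv1, Elf2 and these 5 were named after their values were seen.

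**Figure D5:**
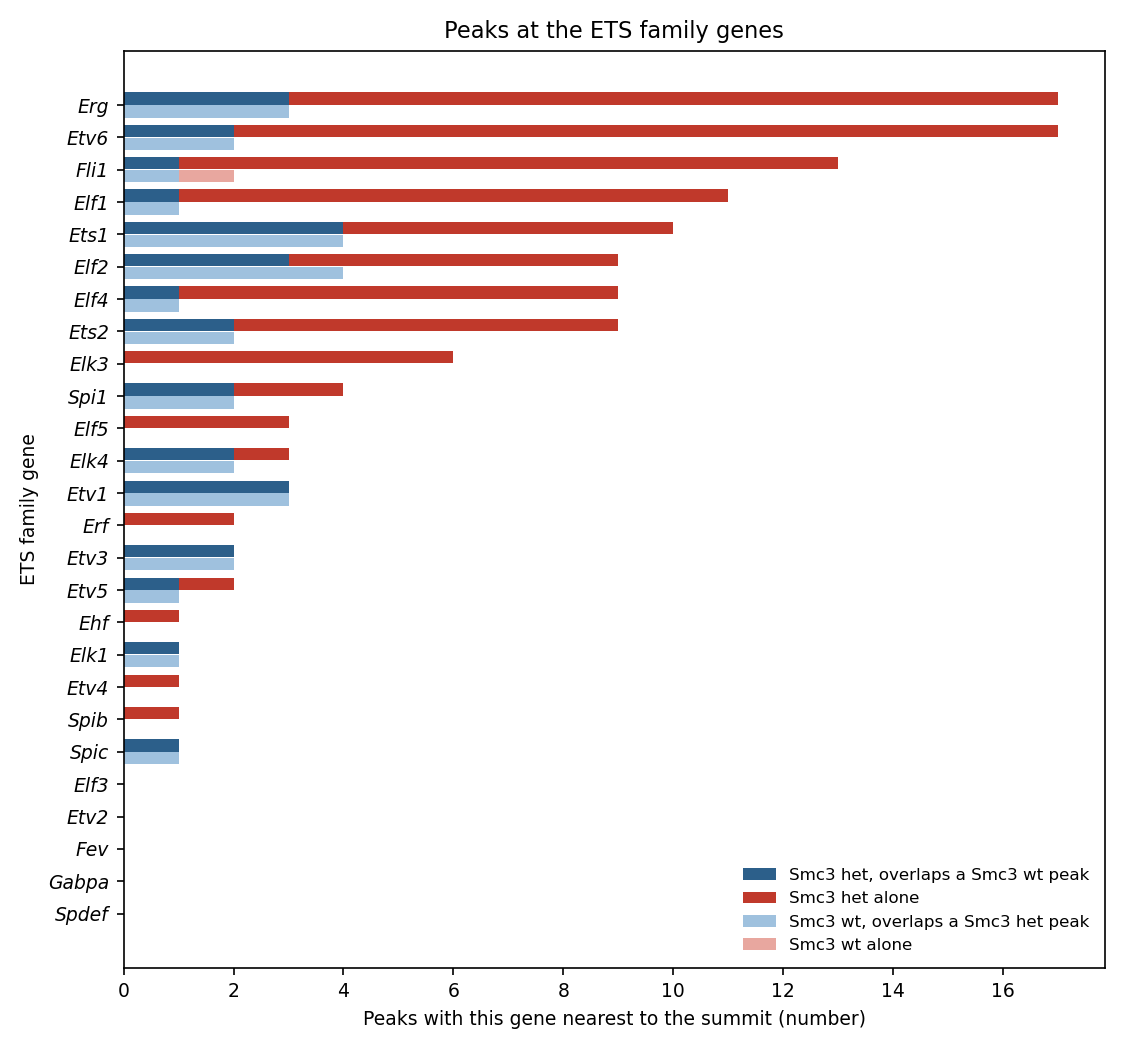
Number of peaks (x) with each of the 26 ETS family genes (y) nearest to the summit. Upper bars are the Smc3 het list and lower, paler bars the Smc3 wt list, split into peaks that overlap the other list (blue) and peaks in that list alone (red). Erg and Etv6 have 17 Smc3 het peaks each and Fli1 13, and the 1 pale red bar, at Fli1, is the Smc3 wt peak 272 bp from a Smc3 het peak.

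Among the 7 heptad genes, all had a Smc3 het peak, beside 71.7% of all protein-coding genes, and 6 a Smc3 wt peak, beside 45.8%. Runx1, the partner of core-binding factor beta, had 29 Smc3 het peaks (20 alone) and 9 Smc3 wt peaks. Tal1, a basic helix-loop-helix factor of blood stem cells, had 6 (5 alone) and 1. Gata2 had 4 Smc3 het peaks, all alone, and no Smc3 wt peak, while Lmo2 had 5 (2 alone) and 3. Both Smc3 het peaks of Lyl1 were shared. The share of Smc3 het peaks that were shared was 28.6% over the other 6 heptad genes together and 23.5% over the other 24 ETS genes (which hold Erg too), beside 7.69% at Fli1, 40% at Ets1 and 30.1% over all protein-coding genes. Single ETS genes varied, with 1 of 11 shared at Elf1 and 2 of 17 at Etv6 but all 3 at Etv1, so a low share was not particular to Fli1. Gata2, Lmo2 and Lyl1 were likewise named after their values were seen.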

How the data were processed

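ATAC-seq peaks of 6 libraries were deposited as 1 list per genotype in a 10-column layout. The submitters' processing notes name Bowtie2, MACS2 and the build mm10. The sources used here give no versions, filters, Tn5 shift or pooling of libraries. The deposited columns give a position, a score (not used further), a fold over background, a -log10 p and a -log10 q (q of 0.05 or less) and a summit for each peak, all as the authors' peak caller wrote them. Lists were tied to genotypes by their peak names.

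Overlap, gene assignment and counts were computed in Python 3.11.15 with pandas 2.3.3, numpy 2.4.6 and scipy 1.17.1. Gene spans came from RefSeq GRCm38.p6, the assembly of mm10. Pileup and background were recovered by taking fold as pileup plus 1 over background plus 1 and -log10 p as a Poisson tail, which matched within 0.01 for 99.7% of Smc3 het and 99.4% of Smc3 wt peaks. The functions were tested on simulated data. How the peak caller set its local background is not stated in the sources used.

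The members and gene lists were chosen with earlier results of these data known. The text names the pair, 3 neighbours per side, up to 4 members per gene list with most unshared Smc3 het peaks, members with an unshared Smc3 wt peak and 3 genes of like counts per member. Planned motif counts were not made. Alternatives were stricter thresholds, equal list length, other overlap rules and other gene assignments. Tests over replicates and leaving out libraries need values per library, which were not analysed here.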

Additional observations from a re-analysis of the deposited data

How the results depend on the processing

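Of 99 recomputed values 65 stayed within 1.5 times the count in the full lists, or for the shared percentage at the pair (21.7%) within its exact Clopper-Pearson 95% interval (7.46 to 43.7, counting error only), and 34 moved. Requiring 50% overlap of the shorter peak or using the peak midpoint moved none. With a -log10 q of at least 3, Smc3 wt had 1 peak at Fli1. With at least 5 in both lists, Smc3 het had 7 peaks at Fli1, all 7 alone, and 6 at Ets1. Smc3 wt then had 0 at Fli1 (0 alone) and 2 at Ets1. The 7 included the Fli1 peak shared in the full lists, which counted as alone because the cut removed its Smc3 wt counterpart (-log10 q 2.16). With a fold of at least 5, Fli1 had 0 peaks in Smc3 het (0 alone) and 0 in Smc3 wt (0 alone), and Ets1 had 1 in Smc3 het (0 alone) and 1 in Smc3 wt, so that 100% of Smc3 het peaks at the pair were shared. At equal list length Fli1 had 3 Smc3 het peaks, 3 alone, and 2 Smc3 wt peaks alone, and Ets1 had 5 Smc3 het peaks with 1 alone, which made 50% of Smc3 het peaks at the pair shared. That cut kept Smc3 het peaks with a -log10 q of at least 11.81 and so removed the shared Fli1 peak. When peaks within 500 bp counted as shared, Smc3 wt had 0 peaks alone at Fli1. In the gene and 5 kb around it, and likewise with genes of any class as the nearest gene, Ets1 had 2 Smc3 het peaks (0 alone) and 2 Smc3 wt peaks. Of the alternatives added after the data were seen, leaving out peaks narrower than 208 bp left 8 Smc3 het peaks at Fli1 with 7 alone and 3 alone at Ets1, and a limit of 100 kb left Ets1 4 Smc3 het peaks with 2 alone and 2 Smc3 wt peaks. No paired analysis was possible because the deposited lists carry no values per library, and leaving out libraries was not run for the same reason. Depth is unknown, so a peak missing from the Smc3 wt list was not called there, which does not show that the site was closed.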
